A study of Homo sapiens with 12 samples.

Results

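The genes described here are long non-coding RNA (lncRNA) genes of 2 kinds, although GENCODE 29 types 1 of them, SNHG28, as protein-coding. The first kind carries small nucleolar RNAs (snoRNAs) in its introns, and the second is a set of well-known lncRNAs such as NORAD, MALAT1 and NEAT1. A gene was taken when its name in the deposited table began with SNHG, for small nucleolar RNA host gene, or was 1 of 19 further names. This gave 37 of the 25733 genes in the table, 21 by the SNHG prefix and 16 by name. H19, MEG3 and LINC00152 were not analysed here under those names; LINC00152 is an older symbol of CYTOR, which was. The 37 genes held 25 snoRNA hosts, namely the 21 SNHG genes with GAS5, ZFAS1, EPB41L4A-AS1 and DANCR, and 12 other lncRNAs.

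RNA was sequenced from HCT116, an established human colon cancer cell line, in 12 libraries, 3 in each of 4 groups. Control cells are labelled as having had no treatment. By the study's methods, NH4Cl was given at 10 mM for 24 hours, TGF-β at 200 pM for 1 hour after 23 hours in vehicle, and the combined group had 23 hours of NH4Cl before the hour of TGF-β. The title of the series places ammonia, a product of gut microbes, against TGF-β signalling, so the comparisons ask what each agent, alone and together, does to the RNA of these cells. All cells come from 1 line, and the libraries were labelled replicates 1 to 3 in each group.

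snoRNAs guide chemical modification of ribosomal and other RNAs, and most human snoRNAs are cut from the introns of a longer host transcript. The spliced exons of several hosts, GAS5 among them, are degraded by nonsense-mediated decay, which acts on transcripts under translation. Several of the other lncRNAs act through their own sequence: NEAT1 builds nuclear bodies called paraspeckles, MALAT1 sits in nuclear speckles, and NORAD binds Pumilio proteins in the cytoplasm. The values used here are those of the host genes and the long transcripts. Whether reads on snoRNA entries came from mature snoRNAs was not tested.

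In the GENCODE 29 annotation, which matches the table, 24 of the 25 hosts held at least 1 small RNA gene of the snoRNA or scaRNA type inside their borders on the same strand. GAS5, a host by general knowledge, had no such entry, and none of the 12 other lncRNAs had one. The hosts held 134 such entries, 84 of them inside SNHG14 and 50 in the rest. Some places are annotated more than once, and the entries lie at 129 places that do not overlap. Values were read for 15 of the 134, with 5 to 338 reads each over all 12 libraries and 1033 reads together, against 497775 reads on the 37 genes. The values below are those of the host genes over all their annotated exons, which in some hosts cover a small RNA. The exons of SNHG9, 551 bases, fill the whole gene, with SNORA78 inside. SNHG1 has 3756 exon bases between positions 62851988 and 62855914, with 7 such entries inside. In such hosts, reads of a small RNA or of unspliced RNA may not be told apart from those of the spliced transcript.

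ZFAS1 carries 3 close relatives of 1 family, which guide 2′-O-methylation, and EPB41L4A-AS1 carries SNORA13, of the class that guides pseudouridylation. They are shown because both hosts were among those called in the NH4Cl comparisons. Capitals mark box C (TGATGA) and box D (CTGA) in the SNORD12 family, and the ACA box, 3 bases from the end, in SNORA13. Sequences are DNA letters of GENCODE 29 on GRCh38, read 5′ to 3′.

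SNORD12 (chr20:49280683-49280772, + strand, 90 bases): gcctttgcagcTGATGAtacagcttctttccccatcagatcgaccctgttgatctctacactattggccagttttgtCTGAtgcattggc

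SNORD12B (chr20:49280319-49280409, + strand, 91 bases): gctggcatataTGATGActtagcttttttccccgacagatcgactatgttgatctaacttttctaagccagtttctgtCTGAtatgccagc

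SNORD12C (chr20:49278940-49279028, + strand, 89 bases): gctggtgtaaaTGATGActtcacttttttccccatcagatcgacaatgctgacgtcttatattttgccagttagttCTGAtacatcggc

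SNORA13 (chr5:112161485-112161617, + strand, 133 bases): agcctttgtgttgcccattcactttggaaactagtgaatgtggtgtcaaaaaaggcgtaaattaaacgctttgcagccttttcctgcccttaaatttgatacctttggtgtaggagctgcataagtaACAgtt

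In each of the SNORD12 sequences box C began at base 12, and box D was followed by 9 bases. Values in the table are FPKM, which scales reads to exon length and a total for each library. Levels can therefore be set beside each other between genes, with 1 limit. The length is that of all annotated exons of a gene, so a gene whose RNA covers only part of them reads lower. The total for each library was 0.9637 to 0.9687 times the reads on genes in the replicate 3 libraries and 1.0171 to 1.0322 times in the others. Library depth, recovered from the FPKM values and the exon lengths, ran from 14807630 to 18191998 reads on genes.

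The libraries with replicate number 3 stood apart in all 4 groups. Mitochondrial genes took 4.50% to 5.12% of their reads, against 2.46% to 3.18% in the other libraries. Deviations from the group mean showed the same split. Across genes, replicate 3 libraries of different groups correlated at 0.702 to 0.774 with each other and at -0.655 to -0.464 with the libraries numbered 1 or 2. Numbers 1 and 2 were not told apart: libraries of equal number correlated at 0.349 to 0.431 for number 1 and 0.446 to 0.533 for number 2, and those of number 1 with number 2 at 0.341 to 0.486. The difference between replicates 2 and 1 correlated at 0.0829 at most between groups. Genes are not independent replicates, and the labels name no batch. Tests below are given without and with a term for the replicate number, called the replicate block. The block sets replicate 3 apart, and these values do not show that libraries 1 and 2 pair by number, so a count such as 3 of 3 replicates rests on the labels' numbering. For a gene called with the block such a count is no further evidence, since the block favours genes whose differences agree between replicates. A gene is called when its p-value from limma, adjusted by the Benjamini-Hochberg method over all 12341 genes tested, was under 0.05.

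Of the 37 genes, 28 had a mean FPKM of at least 1 and were tested, 20 hosts and 8 other lncRNAs. The 9 below this level, SNHG9, SNHG14, SNHG20, SNHG26, SNHG28, CYTOR, FTX, JPX and KCNQ1OT1, had means from 0.00107 in SNHG14 to 0.979 in SNHG26. The lowest gene tested was SNHG25, with a mean of 1.02 FPKM and 1 to 12 reads per library, a depth at which its ratios carry little. A mean of at least 10 FPKM was reached by 16 of the genes. Together the 37 genes took 0.237% to 0.298% of the reads of a library, and their FPKM summed to 684 to 788 in replicates 1 and 2 and to 864 to 929 in replicate 3. The FPKM of all genes also summed higher in replicate 3, at 301728.4 to 305983.5, against 262957.7 to 278919.8 in replicates 1 and 2.

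Most of that sum came from hosts. The 25 hosts summed to 524 to 760 FPKM and the 12 other lncRNAs to 156 to 171 FPKM, most of it NORAD. NORAD was the most abundant of the 37 genes, at a mean of 117 FPKM, and ranked 299 among all genes of the table. SNHG6, SNHG5, SNHG8 and DANCR followed at 86.5, 83.1, 75.4 and 66.9 FPKM, and SNHG19, GAS5 and ZFAS1 at 46.0, 44.6 and 42.5 FPKM. Each of these 8 stood in the top 4.07% of genes by mean level. MALAT1 and NEAT1, abundant nuclear RNAs in many cells, had means of 9.12 and 7.51 FPKM here, over exon lengths of 8829 and 22767 bases. NEAT1 still drew 1269 to 5195 reads per library.

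**Figure D1:**
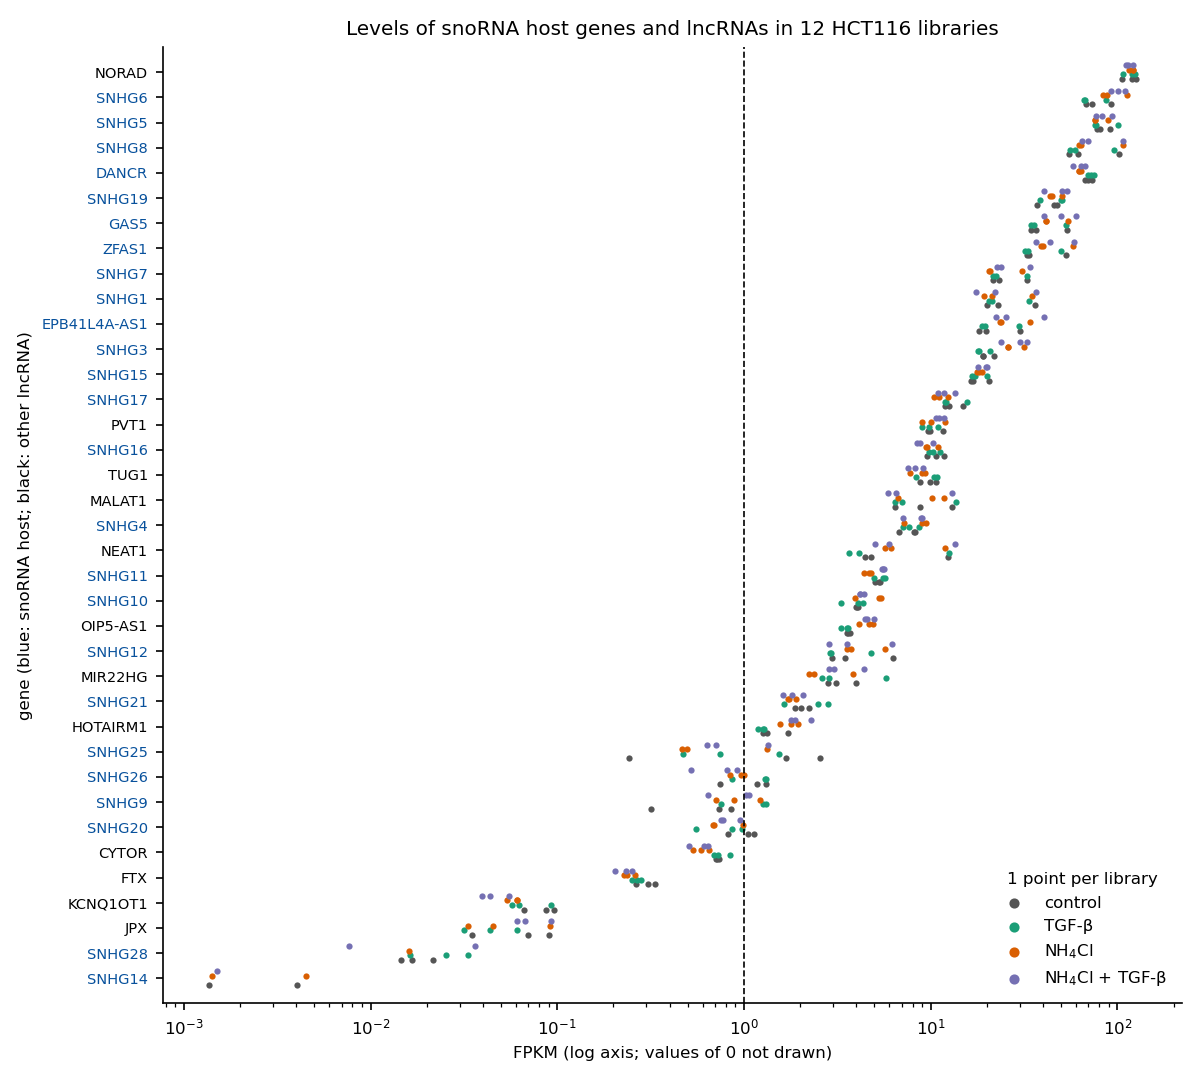
FPKM of the 37 genes in the 12 libraries on a log axis, with 1 point per library, the group by colour, hosts named in blue and other lncRNAs in black; values of 0 are not drawn and the dashed line marks the filter at 1 FPKM. NORAD leads at a mean of 117 FPKM and SNHG14 closes the order at 0.00107 FPKM.

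The strand used in counting is not given in the sources used here, so reads from an overlapping gene on the other strand could be counted where exons are shared. EPB41L4A-AS1 shared 49.6% of its exon bases with the opposite gene EPB41L4A. The share was 30.6% for SNHG16, 29.3% for SNHG6, whose neighbour is MCMDC2, and 11.9% for DANCR. Among genes not called with all 12 libraries it was 34.1% for SNHG21, 25.2% for SNHG7 and 20.1% for SNHG10. ZFAS1 also shared exon bases with ZNFX1 on the opposite strand. On their own strand SNHG21 shared 72.9% of its exon bases with other genes, SNHG4 14.0%, and SNHG3 5.92% with RCC1. For these stretches the genes cannot be told apart in the table.

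NH4Cl against control came first, since it holds the treatment alone. Without the block 0 of the 28 genes were called by limma, against 47 of the 12341 genes tested, or 0.381%, and 4 had an unadjusted p under 0.05, against 10.8% of all genes. With the block 7 of the 28 were called, or 25.0%, against 13.6% of all genes tested. Higher levels after NH4Cl were called for 5 of them, against 7.42% of all genes, and lower levels for 2, against 6.14%. All 7 moved the same way in 3 of 3 replicates, and the share of all genes that did so is not given here. Among the 7 were 5 of 20 hosts and 2 of 8 other lncRNAs. An unadjusted p under 0.05 with the block was found for 15 of the 28, against 3585 of the 12341. The median log2 difference was 0.03 over the 28 genes and 0.00 over all genes tested. The 5 rises were in SNHG3, SNHG6, EPB41L4A-AS1, OIP5-AS1 and ZFAS1, and the 2 falls in SNHG17 and TUG1.

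SNHG3 (ENSG00000242125, chr1:28505980-28510892), host of SNORA73A and SNORA73B, had the largest rise among the 28. Its level was 19.03, 18.95 and 21.82 FPKM in control replicates 1, 2 and 3, and 26.0, 25.9 and 31.4 FPKM after NH4Cl. With TGF-β alone it was 18.1, 17.9 and 20.9 FPKM, and with both agents 30.2, 23.7 and 32.7 FPKM. Every NH4Cl library, with or without TGF-β, lay above every library without NH4Cl. The difference of log2(FPKM + 1) between NH4Cl and control was 0.46 with a standard error (SE) of 0.0619, higher in 3 of 3 replicates, and the adjusted p was 0.00181 with the block and 0.154 without it. With 1 replicate number left out in turn the adjusted p with the block was 0.0300, 0.0158 and 0.0322. SNHG3 was the 1 gene of the 28 called for NH4Cl against control in each of those 3 fits.

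SNHG6 (ENSG00000245910), the host of SNORD87, was the most abundant gene that rose. It stood at 73.4, 67.7 and 92.0 FPKM in control and at 87.5, 83.6 and 113 FPKM after NH4Cl. With TGF-β it was 66.7, 65.9 and 86.7 FPKM, and with both agents 100, 92.2 and 109 FPKM. Control replicate 3 exceeded 2 of the 3 NH4Cl libraries, so the groups overlapped, while each NH4Cl library exceeded the control library of its own number. The log2 difference was 0.28 (SE 0.0477) in 3 of 3 replicates, with an adjusted p of 0.00516 with the block and 0.565 without it. Without replicate 1 or without replicate 2 the call with the block was lost, at adjusted p 0.0512 and 0.101, and without replicate 3 it held at 0.0133. Without the block, leaving out NH4Cl replicate 3 lowered the difference to 0.15.

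OIP5-AS1 (ENSG00000247556, chr15:41283990-41309737), a lncRNA also known as cyrano that contains a conserved site for the microRNA miR-7, gave tight replicates. Control libraries held 3.68, 3.55 and 3.60 FPKM, and NH4Cl libraries 4.15, 4.68 and 4.89 FPKM. TGF-β libraries held 3.60, 3.32 and 3.54 FPKM, and those with both agents 4.44, 4.54 and 4.99 FPKM. The lowest library with NH4Cl was above the highest without it, in both pairs of groups, and replicate 3 did not stand apart. For NH4Cl against control the log2 difference was 0.27 (SE 0.0577) in 3 of 3 replicates, and the adjusted p was 0.0148 with the block and 0.128 without it. Under the block the call was lost without replicate 1, 2 or 3, at adjusted p 0.0520, 0.185 and 0.101.

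EPB41L4A-AS1 (ENSG00000224032, chr5:112160526-112164276), host of SNORA13, and ZFAS1 (ENSG00000177410, chr20:49278178-49295738), host of the SNORD12 family shown above, both carried a large replicate 3 shift. EPB41L4A-AS1 stood at 19.9, 18.2 and 30.0 FPKM in control and at 23.6, 23.7 and 34.2 FPKM after NH4Cl. ZFAS1 stood at 33.6, 32.9 and 53.4 FPKM in control and at 38.9, 40.2 and 57.6 FPKM after NH4Cl. In both genes the control library of replicate 3 exceeded the NH4Cl libraries of replicates 1 and 2, so the groups overlapped. For EPB41L4A-AS1 the log2 difference was 0.26 (SE 0.0545) in 3 of 3 replicates, with an adjusted p of 0.0132 with the block and 0.828 without it. For ZFAS1 it was 0.20 (SE 0.0544) in 3 of 3 replicates, with an adjusted p of 0.0398 with the block and 0.881 without it. The ZFAS1 call was lost when libraries were centred on their medians, at adjusted p 0.0589. With 1 replicate number left out, EPB41L4A-AS1 was called without replicate 3, at adjusted p 0.0316, and lost without replicate 1 or 2, at 0.112 and 0.106, while ZFAS1 was lost each time, at 0.112, 0.247 and 0.0853. Single libraries left out without the block moved both values by over 1.5 times. EPB41L4A-AS1 became 0.13 without control replicate 2, 0.47 without control replicate 3 and 0.092 without NH4Cl replicate 3. ZFAS1 became 0.094, 0.079 and 0.42 without control replicates 1, 2 and 3, and 0.30 and 0.020 without NH4Cl replicates 1 and 3.

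The falls were smaller. SNHG17 (ENSG00000196756, chr20:38420588-38435353), host of SNORA71 genes, had 12.5, 11.9 and 14.8 FPKM in control and 11.1, 10.4 and 12.4 FPKM after NH4Cl. TUG1 (ENSG00000253352, chr22:30969245-30979395), a lncRNA found in nucleus and cytoplasm, had 9.91, 10.6 and 8.77 FPKM in control and 9.01, 9.27 and 7.78 FPKM after NH4Cl. Both pairs of groups overlapped, and TUG1 was lower in replicate 3 than in the other libraries of each group. SNHG17 fell by 0.19 on the log2 scale (SE 0.0484) in 3 of 3 replicates, at an adjusted p of 0.0277 with the block and 0.635 without it. TUG1 fell by 0.15 (SE 0.0423) in 3 of 3 replicates, at an adjusted p of 0.0416 with the block and 0.708 without it. Both calls were lost when the block was used with TPM scaling, at adjusted p 0.0598 for SNHG17 and 0.0789 for TUG1. They were also lost with any 1 replicate number left out, at 0.113 to 0.170 for SNHG17 and 0.0912 to 0.326 for TUG1. With a term for replicate 3 alone in place of the block, SNHG17 was called at 0.0193 and TUG1 was not, at 0.0564. Without the block the difference of SNHG17 became -0.11 without control replicate 3, and that of TUG1 -0.095 without control replicate 2 and -0.083 without NH4Cl replicate 3.

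**Figure D2:**
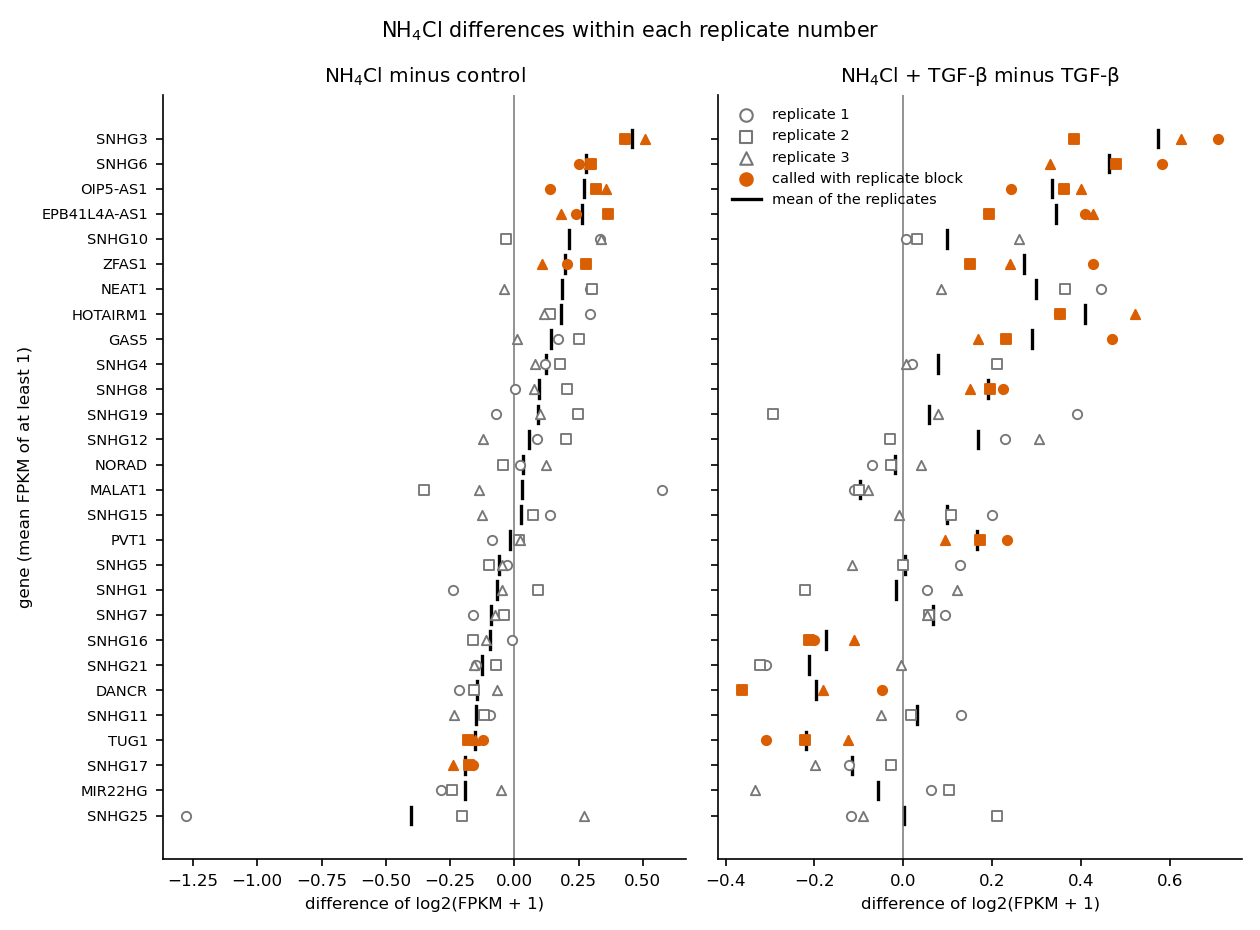
Difference of log2(FPKM + 1) within each replicate number for the 28 tested genes, NH4Cl minus control on the left and both agents minus TGF-β on the right, with 1 point per replicate and a bar for their mean. Filled points mark the 7 and 12 genes called with the replicate block, led by SNHG3 at 0.46 and 0.57.

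The other abundant genes were not called for NH4Cl against control. NORAD (ENSG00000260032) gave 120, 125 and 106 FPKM in control, 120, 124 and 108 FPKM with TGF-β, 122, 122 and 116 FPKM with NH4Cl and 115, 121 and 111 FPKM with both. SNHG5 (ENSG00000203875), host of SNORD50B, gave 77.3, 81.2 and 91.8 FPKM in control, 75.5, 76.7 and 101 FPKM with TGF-β, 75.8, 75.8 and 88.6 FPKM with NH4Cl and 82.6, 76.6 and 93.5 FPKM with both. For these genes all 4 groups overlapped. The log2 difference between NH4Cl and control was 0.03 (SE 0.0366 with the block) for NORAD, higher in 2 of 3 replicates at an adjusted p of 0.597 with the block and 0.958 without it. For SNHG5 it was -0.06 (SE 0.0489), lower in 3 of 3 replicates at 0.470 and 0.953.

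SNHG8 (ENSG00000269893) showed the replicate shift most plainly among the abundant hosts. It gave 61.7, 55.3 and 102 FPKM in control, 59.1, 56.0 and 96.2 FPKM with TGF-β, 61.9, 63.9 and 108 FPKM with NH4Cl and 69.2, 64.3 and 107 FPKM with both. SNHG19 (ENSG00000260260), a short host of 212 to 311 reads per library, gave 45.6, 37.3 and 47.4 FPKM in control, 38.4, 49.9 and 50.7 FPKM with TGF-β, 43.4, 44.4 and 50.8 FPKM with NH4Cl and 50.6, 40.6 and 53.6 FPKM with both. Within each group of SNHG8 the third library was far above the other two, and the groups overlapped in both genes. NH4Cl against control gave 0.09 (SE 0.0419) for SNHG8, higher in 3 of 3 replicates, and 0.09 (SE 0.105) for SNHG19, higher in 2 of 3, at adjusted p 0.168 and 0.617 with the block and 0.973 and 0.914 without it.

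DANCR (ENSG00000226950), host of SNORA26, was level between replicate numbers. It gave 72.9, 69.8 and 67.1 FPKM in control, 69.2, 74.7 and 72.1 FPKM with TGF-β, 62.7, 62.6 and 64.0 FPKM with NH4Cl and 66.9, 57.9 and 63.5 FPKM with both. The libraries with NH4Cl all lay below those without it. For NH4Cl against control the log2 difference was -0.15 (SE 0.0530), lower in 3 of 3 replicates, and did not pass at an adjusted p of 0.101 with the block and 0.422 without it. Groups that did not overlap between NH4Cl and control were found for 4 of the 28 genes, DANCR, SNHG3, SNHG11 and OIP5-AS1, against 17.5% of all genes tested. That count is close to the share over all genes and reads as no more than background.

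The comparison of both agents with TGF-β alone asks what NH4Cl does when TGF-β is present, and it shares no library with the one above. Without the block 1 of the 28 genes, OIP5-AS1, was called, against 1.03% of all genes tested, and 5 had an unadjusted p under 0.05, against 13.3%. OIP5-AS1 rose by 0.33 on the log2 scale (SE 0.0668 without the block) in 3 of 3 replicates, at an adjusted p of 0.0478 without the block and 0.00424 with it. With the block the call was lost without replicate 2, at 0.0758. Leaving out any 1 of the 6 libraries of these groups ended the call without the block, at adjusted p from 0.0701 to 0.224. With the block 12 of the 28 were called, or 42.9%, against 18.8% of all genes, 9 of them higher, against 10.3%, and 3 lower, against 8.48%. The unadjusted p was under 0.05 for 14 genes, against 33.4% of all genes, and the median log2 difference was 0.07, against 0.00 over all genes. Of the 12 genes, 6 were among the 7 called for NH4Cl alone, which lacked only SNHG17 here. The same overlap over all genes is not given here, so the 6 have no background to be read against. Both comparisons also take their spread from the same fit.

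The largest rises among the 28 genes were in SNHG3 and SNHG6, as in NH4Cl against control. SNHG3 rose by 0.57 (SE 0.0619 with the block) in 3 of 3 replicates, at an adjusted p of 0.000518 with the block and 0.0613 without it, and SNHG6 by 0.46 (SE 0.0477) in 3 of 3 at 0.000438 and 0.212. SNHG3 and SNHG6 were called with the block whichever replicate number was left out, at adjusted p of at most 0.0221, and the rise in SNHG6 left no overlap between the groups. EPB41L4A-AS1 stood at 18.9, 19.5 and 29.7 FPKM with TGF-β and at 25.4, 22.4 and 40.3 FPKM with both agents, a rise of 0.34 in 3 of 3 replicates at an adjusted p of 0.00284 with the block and 0.662 without it. ZFAS1 stood at 32.1, 33.0 and 49.6 FPKM and at 43.5, 36.8 and 58.8 FPKM, a rise of 0.27 in 3 of 3 at 0.00844 and 0.729. TUG1 had 10.5, 10.8 and 8.39 FPKM with TGF-β and 8.27, 9.11 and 7.61 FPKM with both, and fell by 0.22 in 3 of 3 replicates at an adjusted p of 0.00736 with the block and 0.423 without it. Calls with the block were lost without replicate 1 for EPB41L4A-AS1, at 0.0689, and ZFAS1, at 0.0906, and for TUG1 without replicate 1 or 2, at 0.122 and 0.111. Without the block, EPB41L4A-AS1 moved to 0.54 without TGF-β replicate 3 and 0.099 without replicate 3 of both agents. ZFAS1 moved to 0.16 and 0.47 without TGF-β replicates 1 and 3, and to 0.42 and 0.091 without replicates 2 and 3 of both agents.

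HOTAIRM1 (ENSG00000233429, chr7:27095647-27100265), a lncRNA of the HOXA cluster, was the weakly expressed gene of this group, with 27 to 58 reads per library. It held 1.26, 1.32 and 1.71 FPKM in control and 1.26, 1.19 and 1.29 FPKM with TGF-β. It held 1.78, 1.55 and 1.94 FPKM with NH4Cl and 1.88, 1.79 and 2.28 FPKM with both agents. The libraries with both agents all lay above those of TGF-β and of control, while the NH4Cl and control groups overlapped through control replicate 3. It rose by 0.41 (SE 0.0687 with the block) between both agents and TGF-β in 3 of 3 replicates, at an adjusted p of 0.00375 with the block and 0.0852 without it. That difference of log2(FPKM + 1) is a fold of 1.33, while the ratio of mean FPKM was 1.59, since adding 1 shrinks differences at such low levels. The call with the block was lost without replicate 1 or 2, at 0.0508 and 0.0556. For NH4Cl alone the log2 difference of 0.18, higher in 3 of 3 replicates, did not pass, at an adjusted p of 0.11 with the block and 0.542 without it. Over 19 alternatives of processing it ran from 0.13 to 0.28.

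GAS5 (ENSG00000234741, chr1:173863900-173868882), a growth-arrest transcript and host, gave 36.6, 34.5 and 54.0 FPKM in control and 35.6, 34.3 and 53.3 FPKM with TGF-β. It gave 41.3, 41.3 and 54.4 FPKM with NH4Cl and 49.7, 40.4 and 60.0 FPKM with both. SNHG16 (ENSG00000163597, chr17:76557766-76565348), host of SNORD1 genes, gave 9.59, 10.7 and 11.8 FPKM in control, 9.81, 10.3 and 11.2 FPKM with TGF-β, 9.52, 9.47 and 10.9 FPKM with NH4Cl and 8.41, 8.76 and 10.3 FPKM with both. In both genes the third library was the highest of each group, and the groups overlapped. Between both agents and TGF-β, GAS5 rose by 0.29 in 3 of 3 replicates at an adjusted p of 0.0127 with the block and 0.656 without it. SNHG16 fell by 0.17 in 3 of 3 at 0.0174 and 0.483, and DANCR fell by 0.20 in 3 of 3 at 0.0295 and 0.190. The other calls with the block were small rises in SNHG8, by 0.19 at an adjusted p of 0.0130, and PVT1, a neighbour of MYC, by 0.17 at 0.0319, each in 3 of 3 replicates and at 0.874 and 0.572 without the block. Without replicate 1 or 2 the calls were lost for GAS5, at 0.129 and 0.0635, SNHG16, at 0.132 and 0.178, SNHG8, at 0.0899 and 0.0949, and PVT1, at 0.217 and 0.210. The DANCR call was lost without replicate 2 or 3, at 0.285 and 0.104. Without the block, GAS5 moved to 0.18 and 0.49 without TGF-β replicates 2 and 3 and 0.15 without replicate 3 of both agents, and PVT1 to 0.10 without TGF-β replicate 1. SNHG8 moved to 0.087, 0.050 and 0.43 without TGF-β replicates 1, 2 and 3, to 0.33 without replicate 2 of both agents, and to -0.034, a change of sign, without replicate 3 of both agents. Groups that did not overlap were found for 5 genes, SNHG3, SNHG6, DANCR, OIP5-AS1 and HOTAIRM1, against 16.3% of all genes tested.

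**Figure D3:**
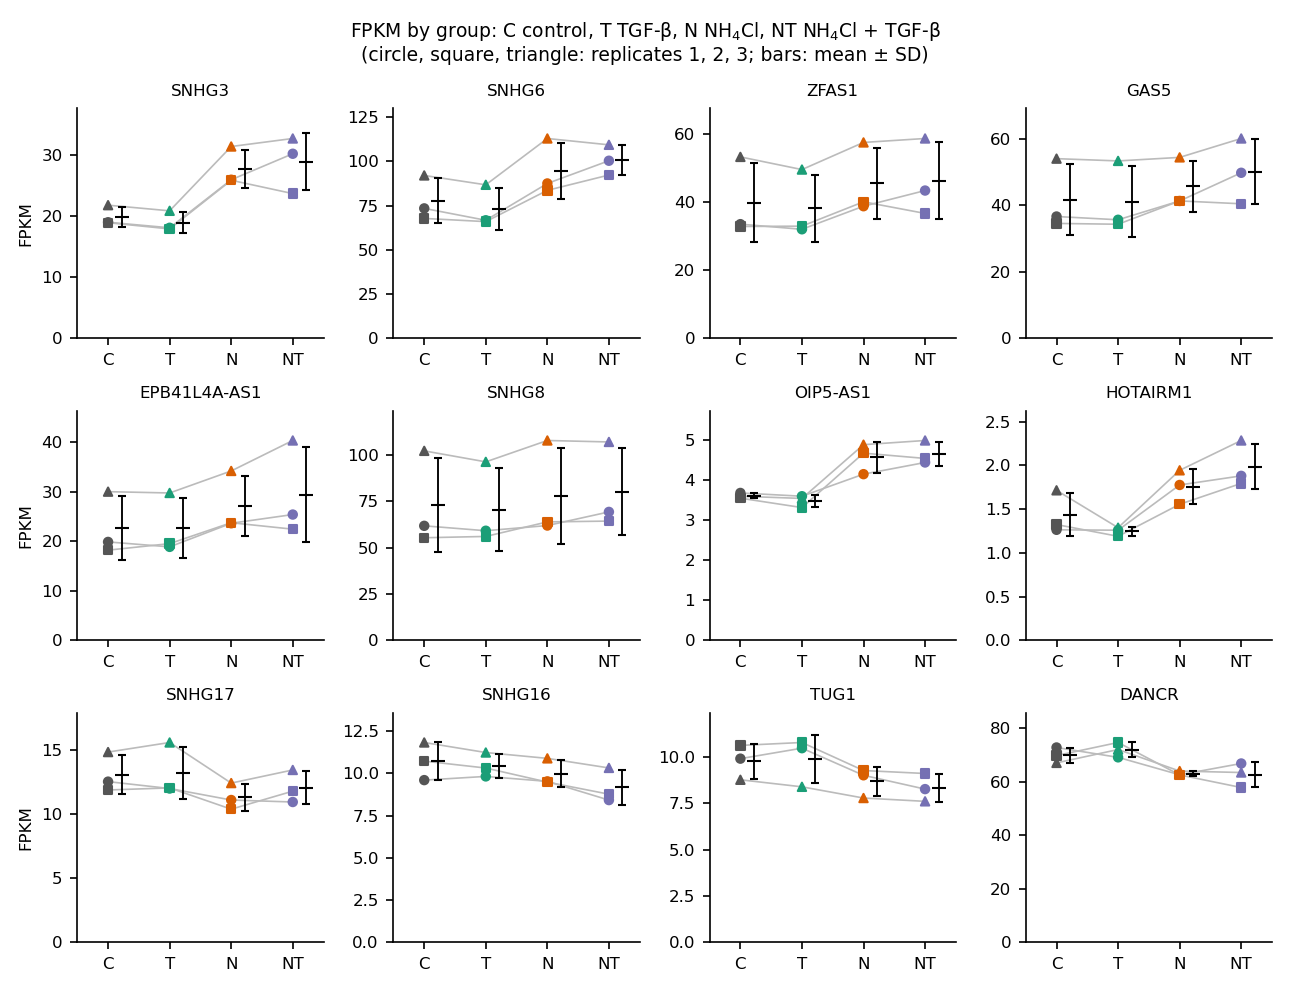
FPKM of the members that the comparisons turn on, in the 4 groups, with 1 point per library, the replicate number by marker shape, lines joining libraries of the same number, and bars for the group mean ± SD (n = 3). SNHG3 lies at 17.9 to 21.8 FPKM in the 6 libraries without NH4Cl and at 23.7 to 32.7 FPKM in the 6 with it.

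Both agents against control shares libraries with each of the comparisons above, so its values stand beside theirs and add no independent count. Without the block limma called 0 of the 28 genes, against 0.948% of all genes, with 5 at an unadjusted p under 0.05, against 13.1%. With the block 10 were called, or 35.7%, against 18.4% of all genes, and 11 had an unadjusted p under 0.05, against 32.8%. Of the 10 called, 8 were higher, against 10.7% of all genes, and 2, TUG1 and SNHG16, were lower, against 7.77%. SNHG3 rose by 0.50 in 3 of 3 replicates, at an adjusted p of 0.00087 with the block and 0.0954 without it. The smallest rise called was that of SNHG8, 0.15 in 3 of 3 replicates at an adjusted p of 0.0363 with the block and 0.907 without it. That call was lost with any 1 replicate number left out, at 0.143, 0.263 and 0.0608, and with a term for replicate 3 alone, at 0.0522. Without the block, SNHG8 became 0.054, -0.024 and 0.41 without control replicates 1, 2 and 3, and 0.23, 0.29 and -0.077 without replicates 1, 2 and 3 of both agents. Only SNHG3 and SNHG6 were called with the block in each of the fits with 1 replicate number left out. Groups did not overlap in 7 genes, against 16.6% of all genes tested.

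No call was made among these genes for TGF-β given for 1 hour. Against control, limma called 0 of the 28 without the block, against 0.0% of all genes, and 0 had an unadjusted p under 0.05, against 0.835%. With the block it called 0 of the 28, against 0.0081% of all genes, which is 1 gene, and 1 of the 28 had an unadjusted p under 0.05, against 3.42%. In cells given NH4Cl, adding TGF-β gave 0 calls without the block, against 0.0% of all genes, and 0 with it, against 0.0081%, with 1 and 5 genes at an unadjusted p under 0.05, against 1.34% and 7.12%. The log2 differences of the 28 genes ran from -0.28 to 0.11 for TGF-β alone, the lowest being the thinly read SNHG25, and from -0.20 to 0.23 for TGF-β after NH4Cl. The interaction, which asks whether the NH4Cl effect differs with TGF-β, gave 0 calls among the 28 and 0.0% of all genes without and with the block, and 0 and 5 of the 28 had an unadjusted p under 0.05, against 0.932% and 4.35%. So the larger number called in the presence of TGF-β is not shown to differ from that without it.

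Many of these genes differed between replicate numbers in all 4 groups. Taking replicate 3 against the mean of replicates 1 and 2, 19 of the 28 genes, or 67.9%, were higher in all 4 groups, against 31.4% of all genes tested. Lower in all 4 groups were 4, or 14.3%, against 32.2% of all genes: NORAD, TUG1, SNHG4 and SNHG25. The median log2 difference was 0.22 over the 28 and -0.01 over all genes. Of the hosts 14 of 20 were higher and 2 of 20 lower in all 4 groups, and of the other lncRNAs 5 of 8 were higher and 2 of 8 lower. The difference between the kinds was not tested.

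NEAT1 and MALAT1, named for this shift after their values were seen, lie close together on chromosome 11 and are both retained in the nucleus. NEAT1 gave 4.46, 4.77 and 12.3 FPKM in control, 4.12, 3.67 and 12.6 FPKM with TGF-β, 5.70, 6.11 and 11.96 FPKM with NH4Cl and 5.97, 5.01 and 13.4 FPKM with both. MALAT1 gave 6.47, 8.80 and 13.1 FPKM in control, 6.43, 7.05 and 13.7 FPKM with TGF-β, 10.1, 6.68 and 11.8 FPKM with NH4Cl and 5.88, 6.51 and 12.9 FPKM with both. In every group replicate 3 was the highest library of both. The mean log2 difference between replicate 3 and the others was 1.20 for NEAT1 and 0.77 for MALAT1, followed by 0.75 for SNHG1, 0.74 for SNHG8, 0.67 for SNHG12, 0.62 for EPB41L4A-AS1 and 0.58 for ZFAS1. At the other end stood NORAD at -0.14, TUG1 at -0.22, SNHG4 at -0.26 and SNHG25 at -0.51. The mitochondrial share of reads moved with the same libraries, and its part in these differences was not tested. With all 12 libraries neither NEAT1 nor MALAT1 was called in any comparison, without or with the block. Without replicate 3, NEAT1 was among the genes called for both agents against TGF-β, both without and with the block.

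**Figure D4:**
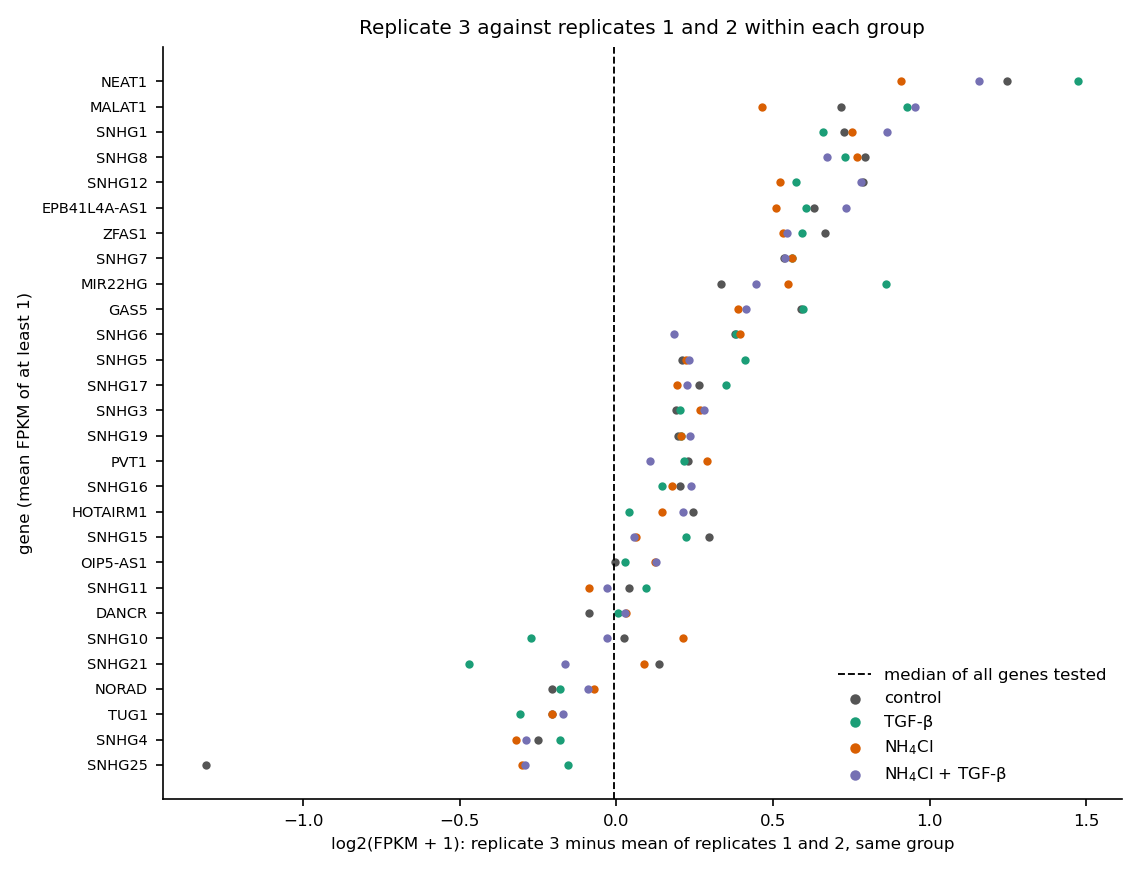
Difference of log2(FPKM + 1) between replicate 3 and the mean of replicates 1 and 2 in each of the 4 groups, 1 point per group, for the 28 tested genes in order of their mean. NEAT1 leads at a mean of 1.20 and SNHG25 ends the order at -0.51, while the median over all genes tested was -0.01.

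Promoters were read from the RefSeq table of GRCh38.p14, which gives 300 bases for each of 35116 starts and held 29 of the 37 genes, 21 hosts and 8 other lncRNAs. SNHG6, SNHG9, SNHG15, SNHG25, HOTAIRM1, NEAT1, KCNQ1OT1 and PVT1 were not analysed for promoters here. Many snoRNA hosts are known to begin with a 5′ terminal oligopyrimidine (TOP) tract, a C followed by a run of C and T, as ribosomal protein genes do. A tract of a C and at least 4 further C or T at the annotated start was found in 5 of 21 hosts, or 23.8%, in 0 of 8 other lncRNAs, and in 4.07% of all starts. The 5 are shown with 20 bases before the start and 20 from it, the tract in capitals, and SNHG3, the gene with the largest rise, is added for comparison with no tract at its annotated start.

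ZFAS1 (chr20:49278622-49278661, + strand): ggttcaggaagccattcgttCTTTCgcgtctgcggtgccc

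SNHG5 (chr6:85678714-85678753, - strand): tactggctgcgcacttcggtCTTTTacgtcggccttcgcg

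SNHG19 (chr16:2155339-2155378, - strand): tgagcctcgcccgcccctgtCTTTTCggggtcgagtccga

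SNHG12 (chr1:28581854-28581893, - strand): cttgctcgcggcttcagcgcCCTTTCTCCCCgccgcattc

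SNHG4 (chr5:139274081-139274120, + strand): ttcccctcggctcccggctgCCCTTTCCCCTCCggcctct

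SNHG3 (chr1:28505923-28505962, + strand): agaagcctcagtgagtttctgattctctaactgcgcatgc

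Of the 5 genes with such a start, ZFAS1 was called for NH4Cl with the block, and SNHG4, SNHG5, SNHG12 and SNHG19 were not called in any comparison. A start is only as exact as its annotation, and a shift of a few bases adds or removes a tract. Some starts differ by more between the 2 annotations. The start used for GAS5, at 173869045, lies outside its GENCODE 29 border of 173868882. That of SNHG14, at 24823608, lies far before its border of 24978583. Both genes count among the hosts without a tract. The 3 motifs searched on both strands of the 300 bases were CACGTG, TGACGTCA and TGATGNAA. CACGTG was found in SNHG7, OIP5-AS1, NORAD and TUG1, which is 13.8% of the 29, against 7.26% of all promoters. By kind it was in 1 of 21 hosts, or 4.76%, and in 3 of 8 other lncRNAs, or 37.5%. TGACGTCA was found in 0 of the 29, against 1.85%, and TGATGNAA in 0 of the 29, against 3.62%. OIP5-AS1 and TUG1, which share CACGTG, moved in opposite directions with NH4Cl.

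Protein-coding genes were followed as 6 lists, 1 of other snoRNA hosts and 5 of proteins linked to snoRNAs, RNA decay or the lncRNAs. In NH4Cl against control limma called 0 genes of any list without the block, with 0 of 13 snoRNP proteins, 3 of 24 protein-coding snoRNA hosts, 1 of 12 nonsense-mediated decay factors, 1 of 13 paraspeckle proteins, 1 of 4 NORAD-binding proteins and 0 of 7 nuclear speckle proteins at an unadjusted p under 0.05. Of all genes tested 0.381% were called without the block and 10.8% had such a p, so that the 3 of 24 and 1 of 12 stand near that share. With the block the counts of called genes were 1, 8, 1, 2, 0 and 1 in the same order of lists. Only the protein-coding hosts held called genes in both directions, 3 higher and 5 lower. Their 8 of 24 stands above the 13.6% of all genes, and the other lists stand near or below it.

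NOP56, a core protein of box C/D snoRNPs that is itself a snoRNA host, had a mean of 64.0 FPKM (SD 9.12, n = 3) in control and 53.6 FPKM (SD 7.33, n = 3) after NH4Cl. It fell by 0.25 on the log2 scale in 3 of 3 replicates, at an adjusted p of 0.00199 with the block and 0.676 without it. Among protein-coding hosts EIF5 fell by 0.21, from 45.3 to 39.0 FPKM, at an adjusted p of 0.00666 with the block and 0.698 without it, and in 3 of 3 replicates like each gene called here, while EIF4A2 rose by 0.20, from 43.7 to 50.3 FPKM, at 0.00874 and 0.932, and RNF149 rose by 0.19, from 13.3 to 15.3 FPKM, at 0.0108 and 0.367. EIF4A2 had an SD of 16.1 FPKM in control, far above its difference, so its call rests on the block. SMG6, a nuclease of nonsense-mediated decay, fell by 0.21, from 2.79 to 2.27 FPKM, at an adjusted p of 0.0366 with the block and 0.439 without it. The paraspeckle proteins HNRNPK and TARDBP each fell by 0.14, at 0.0235 and 0.0319 with the block and 0.590 and 0.313 without it, and the splicing factor SRSF2 of nuclear speckles fell by 0.30, from 57.4 to 46.3 FPKM, at 0.00309 and 0.757. KHDRBS1, the most abundant NORAD-binding protein, had means of 86.8 FPKM in control and 83.9 FPKM after NH4Cl, a log2 difference of -0.05, lower in 3 of 3 replicates, at an adjusted p of 0.424 with the block and 0.823 without it. With both agents against TGF-β the block gave 1, 8, 2, 4, 0 and 2 called genes in the 6 lists, where 18.8% of all genes were called, and against control 1, 7, 2, 6, 0 and 1, where 18.4% were. Protein-coding hosts and paraspeckle proteins stood above these shares in both comparisons, and nuclear speckle proteins against TGF-β alone. Whether a list differed from all genes was not tested.

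The label of the cells was checked on marker genes. Epithelial genes were high, with means of 254 FPKM for EPCAM, 860 for KRT8, 876 for KRT18, 556 for KRT19, 137 for CLDN4 and 17.9 for CDH1. Of the intestinal genes, VIL1 and CDX2 stood at 90.3 and 13.6 FPKM and CDX1 and LGR5 at 3.72 and 1.18 FPKM, while CEACAM5 was near 0 at 0.0956 FPKM. Markers of leukocytes were low, at 0.158 FPKM for CD3E and 0.608 for CD14, and PTPRC was not analysed here. Of fibroblast and endothelial markers, COL1A2, DCN, PECAM1 and CDH5 were at or under 0.240 FPKM, and COL1A1, VWF and LUM at 1.68, 3.01 and 7.79 FPKM.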

How the data were processed

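The deposited table gives FPKM made by the authors for 25733 genes in 12 libraries, 3 in each of 4 groups, and values were used as deposited. The processing notes name Trimmomatic 0.36, STAR 2.5.2b, featureCounts from Subread 1.5.2, DESeq2 and the GRCh38 build without stating roles, while the paper's methods name HTSeq for counting; which of them made the table is not given in the sources used here. FPKM was multiplied by exon lengths of GENCODE 29 and by a factor for each library. This gave whole reads for 100% of values in each library within a tolerance of 0.01. It set the depth of 14807630 to 18191998 reads on genes. The 12341 genes averaging 1 FPKM or more were kept, values became log2(FPKM + 1), and limma 3.58.1 in R 4.3.3 fitted 4 group means with a variance trend, without and with a term for the replicate number. Same-number libraries correlated at 0.349 to 0.774 in their deviations from group means, and only replicate 3 stood apart. Each of 6 comparisons was adjusted over all genes tested at a threshold of 0.05, two-sided. The procedure was also run on simulated data that carried a shift for each replicate number, as the block assumes. Such data cannot decide whether libraries 1 and 2 pair by number. Python 3.11.15 with numpy 2.4.6, pandas 2.3.3 and matplotlib 3.10.9 did the rest.

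Values in every library are given for the 8 genes of highest mean FPKM and for genes called in any comparison, at most the 10 of lowest p for NH4Cl against control; from each protein list up to 2 rises and 2 falls called with the block, or else the most abundant gene. Others named were chosen after their values were seen. The members and lists were chosen with earlier results of these data known. Alternatives were a pseudocount of 0.1, no filter, TPM scaling, median centring, the replicate block alone and with these, and leaving out each library or replicate number. Fits without replicate 3, and with a term for replicate 3 alone in place of the block, were added after the data were seen. A marker gene and a share of exon overlap are not reported here.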

Additional observations from a re-analysis of the deposited data

Results flagged for a closer look

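For 2 genes an effect ran one way in every replicate of one condition and the other way in every replicate of the other. SNHG7, host of SNORA17A and SNORA17B, had log2 differences between NH4Cl and no NH4Cl of -0.16, -0.04 and -0.08 without TGF-β (mean -0.09) and of 0.09, 0.06 and 0.05 with TGF-β (mean 0.07), a difference of 0.16 between the means. In limma the interaction had an adjusted p of 1.00 without the replicate block and 0.992 with it. HOTAIRM1 had log2 differences between TGF-β and no TGF-β of -0.00, -0.09 and -0.25 without NH4Cl (mean -0.11) and of 0.05, 0.13 and 0.16 after NH4Cl (mean 0.11), a difference of 0.23 between the means. Its interaction in limma had an adjusted p of 1.00 without the block and 0.992 with it, so neither difference passed. Among all 12341 genes tested, 160 (1.30%) had opposite NH4Cl effects and 350 (2.84%) opposite TGF-β effects in every replicate.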

How the results depend on the processing

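The count of called genes among the 28 depended on how the replicate number was handled. For NH4Cl against control, both agents against control, and both agents against TGF-β, the counts were 0, 0 and 1 without the block, against 0.381%, 0.948% and 1.03% of all genes. Adding the block gave 7, 10 and 12, which became 5, 11 and 12 with TPM scaling, 6, 10 and 12 with median centring, and 7, 10 and 12 with a pseudocount of 0.1. Of all genes the block called 13.6%, 18.4% and 18.8%, which became 11.9%, 16.7% and 16.7% with TPM scaling, 13.5%, 18.7% and 19.2% with median centring, and 13.4%, 18.3% and 18.6% with the pseudocount. Without the block, TPM scaling gave 1, 1 and 2, against 0.316%, 0.47% and 0.551% of all genes. The 2 were SNHG3 and HOTAIRM1, with OIP5-AS1 lost. No filter gave 0 in the third, against 0.198% of all genes. Leaving out 1 library without the block gave 0 in each, against 0 to 29, 2 to 57 and 3 to 133 of all 12341 genes. These 0 of 28 therefore stand near the share of all genes. With the block and 1 replicate number left out the counts ran from 1 to 3, from 3 to 6 and from 4 to 13, against 218 to 1147, 625 to 1605 and 546 to 1653 of all 12341 genes. Fits without replicate 3 and without the block, chosen after seeing the data, gave 3, 7 and 10, against 10.5%, 13.2% and 14.1% of all genes, so that the 3 of 28 stand near the share of all genes. A term for replicate 3 alone in place of the block, also chosen after seeing the data, gave 6, 9 and 12, against 14.5%, 19.2% and 19.5%. With 2 libraries a group left, the spread was pooled over groups. TGF-β against control, TGF-β after NH4Cl, and the interaction gave 0 under each alternative. For the 15 genes with values in every library, 19 alternatives gave 285 differences between NH4Cl and control: 238 kept their sign and did not pass, 40 kept it and passed, and 7 changed sign. With libraries or replicate numbers left out, NORAD ran from -0.035 to 0.083, SNHG5 from -0.13 to 0.011, SNHG8 from -0.16 to 0.36 and SNHG19 from -0.012 to 0.17. Of the genes called with the block, ZFAS1 ran from 0.020 to 0.42, EPB41L4A-AS1 from 0.092 to 0.47, SNHG6 from 0.15 to 0.41, SNHG3 from 0.37 to 0.52, OIP5-AS1 from 0.23 to 0.34, SNHG17 from -0.26 to -0.11 and TUG1 from -0.22 to -0.083. The sign changes were NORAD without control replicate 3 and without replicate 3 (-0.011, with and without the block), SNHG5 without control replicate 3, SNHG8 without control replicate 2 (-0.077) or NH4Cl replicate 3, and SNHG19 without control replicate 2. The cause of these changes was not tested. Under a scaling, the median log2 difference over all genes was at most 0.0147 in size in any comparison. FPKM are relative levels, fewer reads of overlapping neighbours cannot be told apart from lower levels where exons are shared, and among tested genes depth limits SNHG25, SNHG21 and HOTAIRM1 the most.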
